A study of Mus musculus with 12 samples.

Results

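Non-CG DNA methylation was described over the 8 mouse genes that encode the MBD proteins MBD1 to MBD6 and the UHRF proteins UHRF1 and UHRF2, in whole cortex. The genes were taken as a list of names by protein family, with no threshold on their values. They are 8 of the 23882 genes that could be named in the 12 whole genome bisulfite sequencing tables, and 8 of the 19826 genes that had at least 500 calls in every library and entered the test. All mice were C57BL/6 and the tissue was cortex in every group. The groups were miR29 KO cortex at postnatal day 40 (P40, 4 libraries) with its WT cortex at P40 (4 libraries), and Dnmt3a mi5 cortex at 4 months (2 libraries) with its WT cortex at 4 months (2 libraries). The titles of the Dnmt3a mi5 libraries name a mutation of miR-29 in Dnmt3a. The labels do not give the sites changed, nor the miR-29 genes deleted in the KO or the cells that lost them. Genotype and age cannot be told apart across the 2 mutants, since each was sampled at 1 age.

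MBD proteins share a fold that in several members binds methylated CG pairs, and some of them bring repressive complexes to DNA. The UHRF proteins recognise methylated or oxidised cytosine through a different fold, and UHRF1 guides the maintenance methyltransferase DNMT1 to newly copied DNA. In neurons the methyltransferase DNMT3A also methylates cytosines outside CG pairs, mostly after birth, and this non-CG methylation within gene bodies tends to be denser in genes of lower expression. The measurement here is the methylation carried by the reader genes themselves, not the binding or the amount of their proteins. Because the samples were whole tissue, a change in the mix of cells and a change in the level per cell cannot be told apart.

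The mature miR-29 sequences are shown because this microRNA family, which is known to target the Dnmt3a transcript, is what both mutants alter or are named for. They come from RefSeq (GRCm38.p6), with the seed, bases 2 to 8 from the 5′ end, in capitals.
mmu-miR-29a-3p (chr6:31062673-31062694, minus strand): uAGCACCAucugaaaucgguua
mmu-miR-29b-3p (chr6:31063025-31063047, minus strand): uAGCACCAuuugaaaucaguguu
mmu-miR-29c-3p (chr1:195037600-195037621, plus strand): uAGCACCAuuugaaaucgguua
All 3 carry the same seed.

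The promoter window of Uhrf2 is shown to make plain which cytosines a non-CG level counts. It spans 250 bases before to 50 bases after the gene start (RefSeq, GRCm38.p6, chr19:30030263-30030562, plus strand), with CG pairs in capitals.
Uhrf2: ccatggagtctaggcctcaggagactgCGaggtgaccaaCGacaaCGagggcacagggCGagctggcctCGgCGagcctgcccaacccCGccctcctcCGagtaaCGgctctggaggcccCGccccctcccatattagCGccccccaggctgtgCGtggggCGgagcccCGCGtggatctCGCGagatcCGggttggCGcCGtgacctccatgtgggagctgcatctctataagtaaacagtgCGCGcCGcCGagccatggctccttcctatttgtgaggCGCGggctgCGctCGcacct
The window holds 28 CG pairs, whose cytosines a non-CG level leaves out, and 78 other cytosines on the strand shown and 68 on the opposite strand. Of all 32851 windows of this kind, 14.2% hold at least as many CG pairs. The levels below are of each gene's whole row, built on mm9, and this window was not analysed here.

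A level is the count of methylated non-CG calls divided by all non-CG calls in a gene's row, in percent. Summed over the 23882 named genes, 1 row each, total calls ran from 624203672 to 701491569 in KO libraries and from 605997533 to 732985426 in WT libraries at P40. They ran from 399563492 to 408921118 in mi5 libraries and from 440703827 to 474003465 in WT libraries at 4 months. The level averaged over all tested genes was 2.16% ± 0.316 in KO cortex and 1.39% ± 0.124 in WT cortex at P40 (SD, n = 4 each). It was 2.33% ± 0.0306 in mi5 cortex and 1.32% ± 0.00564 in WT cortex at 4 months (SD, n = 2 each). Of all tested genes, 95.9% had a positive log2 odds ratio in the KO comparison and likewise 95.9% in the mi5 comparison, and the reader genes are read against that background. KO replicate 4 had the lowest mean of the KO libraries, at 1.72%. As a check of the labels, the miR-29 genes gathered 6 to 69 calls in KO libraries against 121 to 244 in WT libraries at P40, and 106 to 129 in mi5 libraries against 151 to 200 in WT libraries at 4 months. In 1 library of each group (KO replicate 3, WT P40 replicate 2, mi5 replicate 1 and WT 4-month replicate 2) the Y-linked genes had little coverage.

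The reader genes differed in level, and the lowest 3, Mbd1, Mbd3 and Mbd6, are called sparsely methylated here. In WT cortex at P40 the level was 1.87% ± 0.211 for Mbd2, 1.61% ± 0.189 for Uhrf1, 1.28% ± 0.117 for Mbd4, 0.935% ± 0.0427 for Uhrf2 and 0.932% ± 0.0818 for Mbd5 (SD, n = 4). For Mbd1 it was 0.444% ± 0.239, for Mbd6 0.383% ± 0.133 and for Mbd3 0.371% ± 0.0800. These low levels lie near the floor, as the 1st percentile of all tested genes was 0.227% to 0.258% in these WT libraries. What part of a level is incomplete conversion was not tested. Among the tested genes, Mbd2 stood at percentile 72.5, Uhrf1 at 61.7, Mbd4 at 48.7, Uhrf2 at 34.1 and Mbd5 at 33.9. Mbd1 stood at percentile 6.88, Mbd6 at 3.56 and Mbd3 at 3.06. Neighbours in this order whose ranges over libraries did not overlap were Mbd4 and Uhrf2, and Mbd5 and Mbd1; the other neighbours overlapped. In KO cortex the order was Uhrf1, Mbd2, Mbd4, Uhrf2, Mbd5, Mbd1, Mbd3 and Mbd6, with gaps below Mbd2 and below Mbd5. In mi5 cortex it was Uhrf1, Mbd2, Mbd4, Mbd5, Uhrf2, Mbd3, Mbd1 and Mbd6, with gaps below Mbd2, Mbd5 and Uhrf2. WT cortex at 4 months had the order Mbd2, Uhrf1, Mbd4, Uhrf2, Mbd5, Mbd1, Mbd3 and Mbd6, and there the overlapping neighbours were Uhrf2 with Mbd5 and Mbd3 with Mbd6. Mbd1, Mbd3 and Mbd6 were the lowest 3 in every group.

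**Figure D1:**
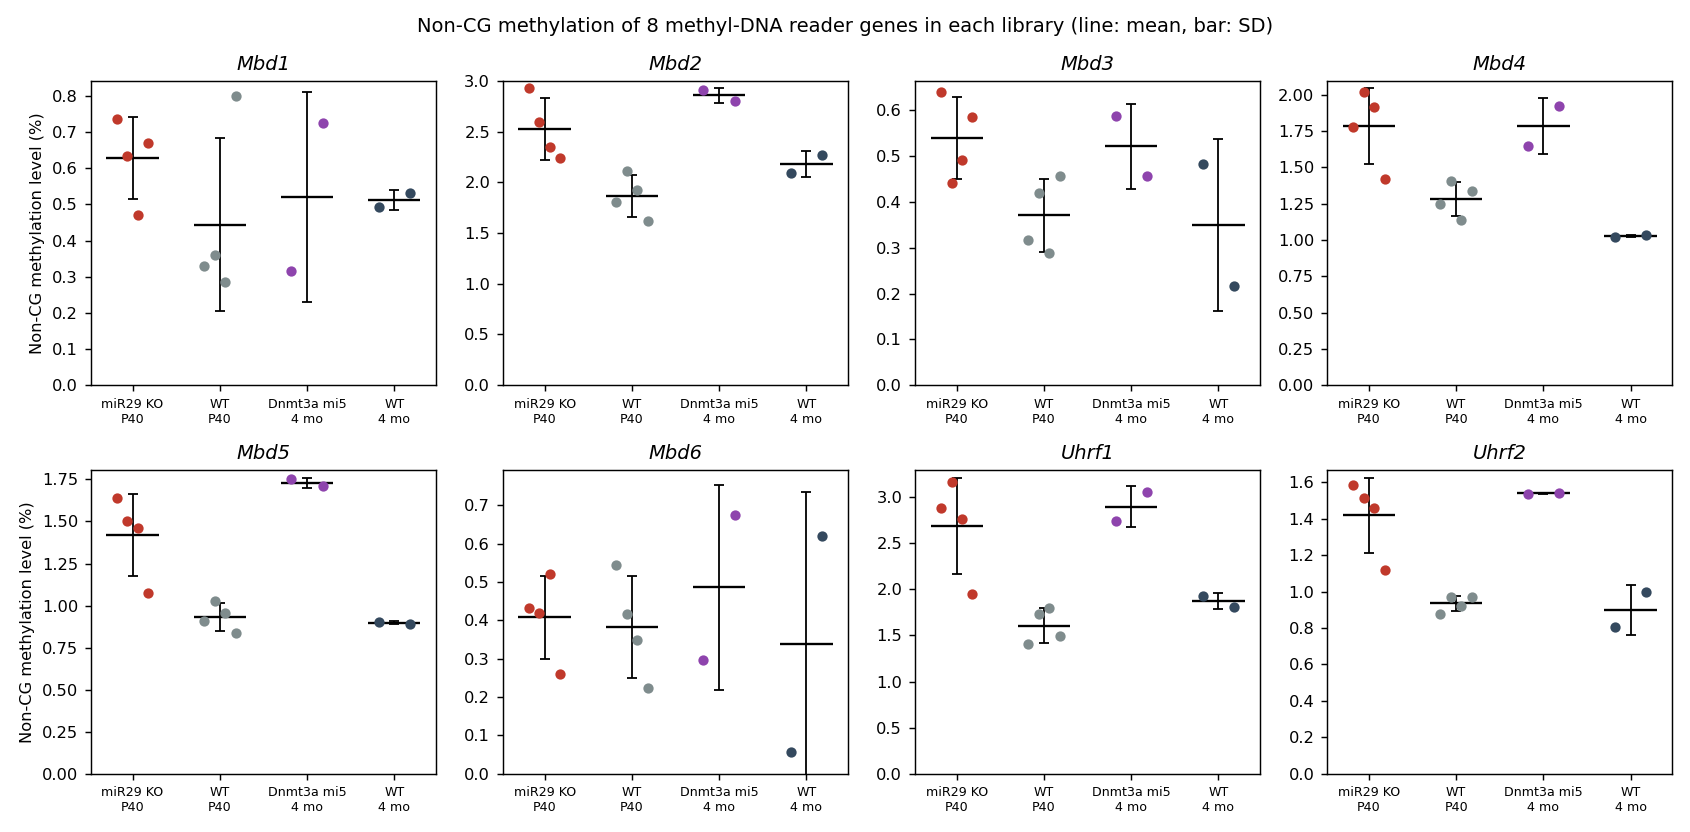
Non-CG methylation level (percent of calls) of each reader gene in the 4 groups; points are libraries, and lines and bars are the mean and SD (n = 4 each at P40, n = 2 each at 4 months). Mbd2, Mbd4, Mbd5, Uhrf1 and Uhrf2 had all mutant libraries above their WT libraries at both ages, while Mbd1, Mbd3 and Mbd6 overlapped. The library means over all tested genes were also apart, at 1.72% to 2.46% in KO against 1.28% to 1.54% in WT at P40. At 4 months they were 2.31% to 2.35% in mi5 against 1.31% to 1.32% in WT. The share of all genes without overlap was not counted. The SD bar of Mbd6 in WT cortex at 4 months reaches below 0 and is cut at the axis.

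At P40, 5 of the 8 reader genes rose in miR29 KO cortex (Mbd2, Mbd4, Mbd5, Uhrf1 and Uhrf2) and none fell. Across all 19826 tested genes 76.5% rose and 0.0454% fell, so the members' count was near the background. The test was a quasi-binomial logistic model over the calls of all 12 libraries with a Benjamini-Hochberg adjusted p over all tested genes and a threshold of 0.05; effects are log2 odds ratios, in which 0 means equal levels. The median of the members was 0.51, against 0.65 over all tested genes. Replicates are separate samples by their labels, and nothing states how many animals they came from, so the p-values reflect only how much these samples vary, which may be technical.

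Of the genes of the NuRD complex, a deacetylase and remodelling complex, Mbd2 encodes the subunit that brings it to methylated DNA. Mbd2 was methylated at 2.93%, 2.60%, 2.35% and 2.25% in KO libraries, against 1.81%, 2.12%, 1.93% and 1.61% in WT libraries. Every KO library lay above every WT library, as in the mean over all tested genes. The log2 odds ratio was 0.45 ± 0.12 (SE, adjusted p = 0.00208). With each library centred on its median gene, Mbd2 was the one reader gene that passed, lower in KO cortex (−0.23, adjusted p = 0.0337). There 3.55% of all genes passed as lower and 1.04% as higher. On the second Mbd2 row, described below, the centred value did not pass (−0.22, adjusted p = 0.284). Mbd3, whose protein takes the place of MBD2 in a separate NuRD form and in mammals binds methylated DNA poorly, had 0.640%, 0.441%, 0.491% and 0.585% in KO libraries, against 0.317%, 0.420%, 0.289% and 0.456% in WT libraries. The groups overlapped, and the log2 odds ratio of 0.51 ± 0.33 did not pass (adjusted p = 0.158). The Mbd3 row held 94 methylated calls over the 4 KO libraries and 61 over the 4 WT libraries, against 4055 and 2831 for Mbd2.

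Mbd1 encodes a transcriptional repressor with an MBD and zinc-finger domains of the CXXC type. Its level was 0.737%, 0.635%, 0.470% and 0.670% in KO libraries, against 0.330%, 0.361%, 0.287% and 0.800% in WT libraries. The groups overlapped through WT replicate 4, the highest of all 8 libraries. The log2 odds ratio was 0.51 ± 0.32 (adjusted p = 0.155); without that library it was 0.94 and passed (adjusted p = 0.0135).

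Mbd4 encodes a DNA glycosylase that removes thymine and uracil mispaired with guanine, as left by deamination at CG pairs. Its level was 1.78%, 2.02%, 1.92% and 1.42% in KO libraries, against 1.25%, 1.41%, 1.14% and 1.34% in WT libraries. The lowest KO library, replicate 4, lay just above the highest WT library. The log2 odds ratio was 0.49 ± 0.15 (adjusted p = 0.00824), and it missed the threshold without the 4 libraries of low Y-gene coverage (0.50, adjusted p = 0.0675).

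Mbd5 and Mbd6 encode proteins with an MBD that is not known to bind methylated DNA and that join the deubiquitinase complex PR-DUB. MBD5 is known in humans for a neurodevelopmental disorder that follows from loss of 1 copy. Mbd5 had 1.64%, 1.50%, 1.46% and 1.07% in KO libraries, against 0.910%, 1.03%, 0.954% and 0.834% in WT libraries. All KO libraries were higher than all WT libraries, with KO replicate 4 nearest to them. Its log2 odds ratio was 0.62 ± 0.15 (adjusted p = 0.00131), and its row was the most deeply covered of the 8, with 224342 to 275239 calls per library at P40. Mbd6 had 0.433%, 0.419%, 0.520% and 0.260% in KO libraries, against 0.544%, 0.416%, 0.348% and 0.225% in WT libraries. These ranges lay nearly on top of each other. The log2 odds ratio of Mbd6 was 0.08, with a 95% interval from −0.75 to 0.91 that also holds the median of all genes (adjusted p = 0.855).

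Uhrf1 encodes the reader of hemimethylated DNA in the maintenance of methylation, and Uhrf2 its relative, which binds hydroxymethylcytosine and does not replace it in maintenance. Uhrf1 was methylated at 2.88%, 3.16%, 2.77% and 1.95% in KO libraries, against 1.40%, 1.73%, 1.80% and 1.49% in WT libraries. The groups did not overlap, and KO replicate 4 again lay closest to WT. Its log2 odds ratio of 0.77 ± 0.14 was the largest of the 8 at P40 and the only one of the 8 above the median gene (adjusted p = 1.3e-04); relative to the median gene it did not pass. Uhrf2 had 1.59%, 1.51%, 1.46% and 1.12% in KO libraries, against 0.880%, 0.970%, 0.924% and 0.968% in WT libraries. The WT libraries lay within a narrow range below all KO libraries. The log2 odds ratio of Uhrf2 was 0.62 ± 0.15 (adjusted p = 0.00113). Split by Y-gene coverage, the log2 odds ratio of Mbd2 was 0.15 in the pair of low coverage (1 against 1) and 0.55 in the other libraries (3 against 3). The other 4 called genes ran from 0.45 to 0.69 in the low pair and from 0.50 to 0.79 in the rest. Of the genes not called, Mbd1 had 0.38 and 0.55, Mbd3 0.23 and 0.62, and Mbd6 0.32 and −0.02, low pair first.

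**Figure D2:**
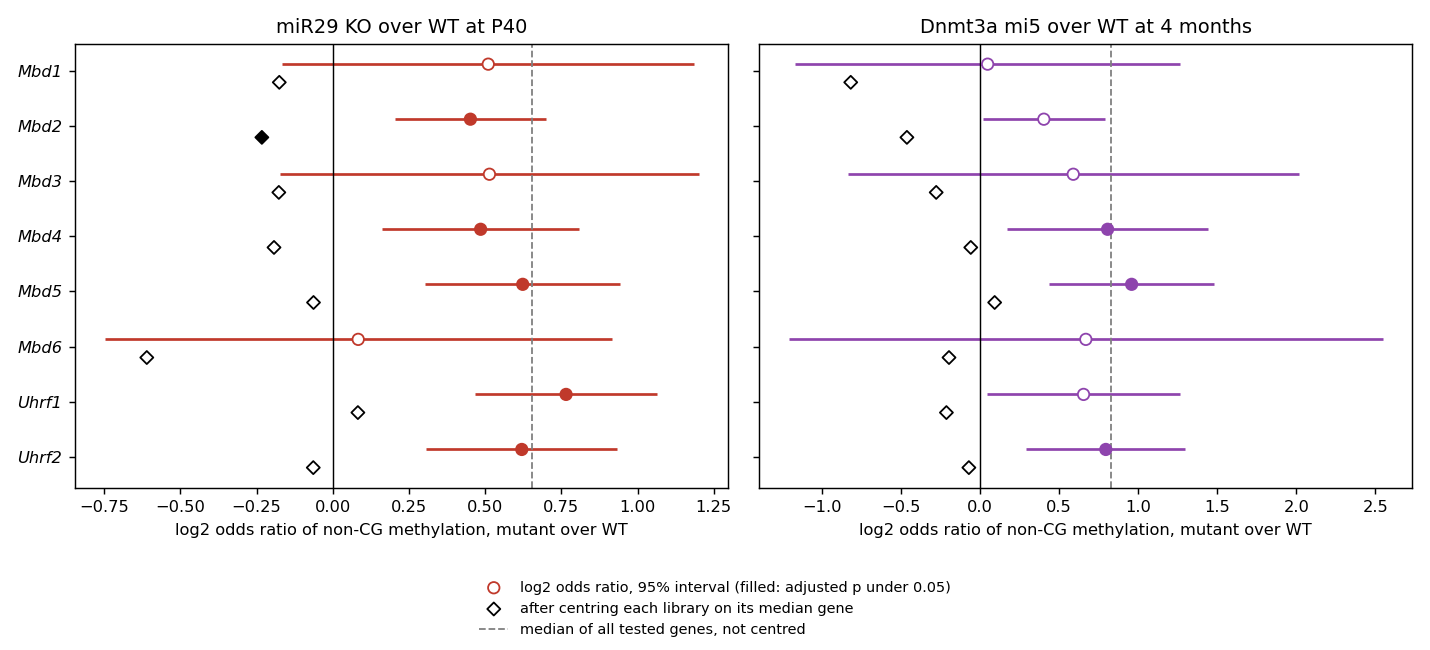
Log2 odds ratio of each reader gene for miR29 KO against WT at P40 and for Dnmt3a mi5 against WT at 4 months, with 95% intervals from the model over 12 libraries (circles; filled where the adjusted p is under 0.05) and again with each library centred on its median gene (diamonds). Dashed lines mark the median of all tested genes, 0.65 at P40 and 0.83 at 4 months; the intervals of Mbd1, Mbd3 and Mbd6 include 0 in both comparisons.

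At 4 months, 3 of the 8 reader genes rose in Dnmt3a mi5 cortex (Mbd4, Mbd5 and Uhrf2) and none fell, where 58.8% of all tested genes rose and 0% fell. In the mi5 comparison 5 of 8 members had an unadjusted p under 0.05, beside 64.8% of all tested genes, and the median log2 odds ratio of the members was 0.66, against 0.83 over all tested genes. Mbd5 had 1.75% and 1.71% in mi5 libraries, against 0.904% and 0.893% in WT libraries. The libraries of a group differed little beside the gap between groups. Its log2 odds ratio was 0.96 ± 0.25 (adjusted p = 0.00469). Uhrf2 had 1.54% in both mi5 libraries, against 0.803% and 0.996% in WT libraries, with a log2 odds ratio of 0.79 ± 0.24 (adjusted p = 0.0103). Mbd4 had 1.65% and 1.92% in mi5 libraries, against 1.02% and 1.03% in WT libraries, with a log2 odds ratio of 0.81 ± 0.30 (adjusted p = 0.0299). For all 3 genes both mi5 libraries lay above both WT libraries, as in the mean over all tested genes. With each library centred on its median gene none of the 8 passed, beside 0% of all genes higher and 0.0353% lower; Mbd2 came nearest (−0.46, adjusted p = 0.0766).

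Uhrf1 and Mbd2 also had both mi5 libraries above both WT libraries at 4 months but missed the threshold. Uhrf1 had 2.74% and 3.05% in mi5 libraries, against 1.93% and 1.81% in WT libraries (log2 odds ratio 0.65 ± 0.29, adjusted p = 0.0603). Mbd2 had 2.91% and 2.81% in mi5 libraries, against 2.09% and 2.27% in WT libraries (0.40 ± 0.19, adjusted p = 0.0669). Mbd3 had 0.588% and 0.456% in mi5 libraries, against 0.483% and 0.216% in WT libraries. Mbd1 had 0.316% and 0.726% in mi5 libraries, against 0.493% and 0.532% in WT libraries. For Mbd6 the levels were 0.298% and 0.674% in mi5 libraries, against 0.0558% and 0.619% in WT libraries. These last 3 genes overlapped between groups, their adjusted p ran from 0.452 to 0.946, and the lowest Mbd6 value rested on 1 methylated call of 1792. The count of 3 depended on single libraries. It was 0 without WT 4-month replicate 1, where 4673 of all genes were called, and 5 without KO replicate 4, which enters only through the shared estimate of spread. Without the 4 libraries of low Y-gene coverage it was 0, with 1 gene called of all 19826. Mbd4 missed the threshold without any 1 of the 4 libraries at 4 months (adjusted p from 0.0537 to 0.143), and Mbd5 and Uhrf2 missed it without WT 4-month replicate 1 (adjusted p = 0.0527 and 0.117). Mbd2 passed without KO replicate 1 or 4 (adjusted p = 0.0416 and 0.0206), and Uhrf1 without KO replicate 4 (adjusted p = 0.00947). With only the libraries at 4 months, 2 per group, both genes passed (adjusted p = 2.2e-04 for Mbd2 and 0.00126 for Uhrf1). Within the pair of low Y-gene coverage and the other pair (1 against 1 each), the log2 odds ratios of Mbd5 were 0.98 and 0.93, those of Uhrf2 0.64 and 0.95, and those of Mbd4 0.69 and 0.92. Uhrf1 had 0.61 and 0.68, and Mbd2 0.37 and 0.44. The sparsely methylated genes turned sign between the pairs, with −0.75 and 0.56 for Mbd1, 1.45 and −0.08 for Mbd3 and −1.06 and 3.60 for Mbd6.

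No reader gene passed the test of the difference between the 2 mutant effects. The contrast of KO over WT at P40 minus mi5 over WT at 4 months called 0 of 8 members and 0% of all tested genes, and 0 members had an unadjusted p under 0.05, beside 1.46% of all tested genes. Every adjusted p was 0.998 or more. Intervals were wide, from −0.95 to 0.28 for Mbd5 and from −0.57 to 0.79 for Uhrf1 on the log2 scale. Differences within these bounds remain compatible with these libraries.

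Between the ages, 0 of 8 reader genes passed in WT cortex, where 0.131% of all tested genes rose at 4 months and 0% fell; 0 members had an unadjusted p under 0.05, beside 2.33% of all tested genes. Mbd2 averaged 2.18% ± 0.128 at 4 months (SD, n = 2) and 1.87% ± 0.211 at P40 (SD, n = 4), a log2 odds ratio of 0.23 ± 0.16. Uhrf1 averaged 1.87% ± 0.0836 at 4 months and 1.61% ± 0.189 at P40, also 0.23 ± 0.24. The Uhrf1 libraries of the 2 ages did not overlap, nor did those of Mbd4, at 1.03% ± 0.00677 at 4 months and 1.28% ± 0.117 at P40 (−0.33 ± 0.27). How many of all genes lacked such overlap was not counted. Age cannot be told apart from whatever else differed between the 2 sets of samples.

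Several reader genes have more than 1 row in the tables, because each RefSeq transcript has its own. Mbd2 and Mbd5 each have 2 rows with distinct values; Uhrf1 has 4 rows of which 2 are distinct, Mbd3 and Mbd6 have 2 identical rows each, and Mbd1, Mbd4 and Uhrf2 have 1. The values above are those of the row with the most calls. For Mbd2 the second row (NM_001311071), with 6540 to 11001 calls per library, was higher with age. Where the rows lie in mm9 was not analysed here, so which bases set the 2 rows apart is not known. It had 3.18% and 3.88% in WT libraries at 4 months, against 1.96%, 1.75%, 2.03% and 1.75% in WT libraries at P40. The ages did not overlap on that row, and its log2 odds ratio for 4 months over P40 was 0.94 ± 0.15 (adjusted p = 0.0044), against 0.23 on the first row (NM_010773). When every gene was represented by its row with the fewest calls, 0.122% of 19746 genes rose with age. With each library also centred on its median gene the value was 1.03 (adjusted p = 1.1e-04), and on the first rows 1.36% of genes then rose with age. Leaving out 1 library at a time gave 0.78 to 1.08, and without WT 4-month replicate 2 the adjusted p was 0.507. The rows of Mbd5 and Uhrf1 with the fewest calls had log2 odds ratios with age of 0.0057 and 0.21, neither past the threshold.

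On the second Mbd2 row the mutants were higher too. Its level was 2.69%, 2.48%, 2.63% and 2.40% in KO libraries, against the WT values just given, with a log2 odds ratio of 0.46 ± 0.12 (adjusted p = 0.00273); on such rows 76% of all genes rose and 0.0456% fell in KO cortex. In mi5 libraries it was 4.88% and 4.59%, against 3.18% and 3.88% in WT libraries at 4 months (0.45 ± 0.15, adjusted p = 0.0187), where 57.7% of all genes rose. The mi5 call on this row was lost without mi5 replicate 1 (0.40, adjusted p = 0.104) and without WT 4-month replicate 1 (0.30, adjusted p = 0.198). The second Mbd5 row (NM_001290656) averaged 1.54% ± 0.373 in KO cortex and 1.03% ± 0.0949 in WT cortex at P40, with a log2 odds ratio of 0.60 (adjusted p = 0.00378), although KO replicate 4, at 0.993%, lay among the WT libraries. It averaged 1.92% ± 0.140 in mi5 cortex and 1.04% ± 0.0379 in WT cortex at 4 months, with 0.91 (adjusted p = 0.00742), a call lost without mi5 replicate 1 (adjusted p = 0.0509) and without WT 4-month replicate 1 (adjusted p = 0.0690). In the RefSeq annotation of GRCm38.p6, Mbd4 overlaps Ift122, Mbd5 overlaps Orc4, Gm13510 and Ap2m1-ps, Mbd6 overlaps Dctn2 and Ddit3, Mbd2 overlaps Gm31671 and Mbd3 overlaps Gm30823. Calls in the overlaps may be counted for both genes of a pair.

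**Figure D3:**
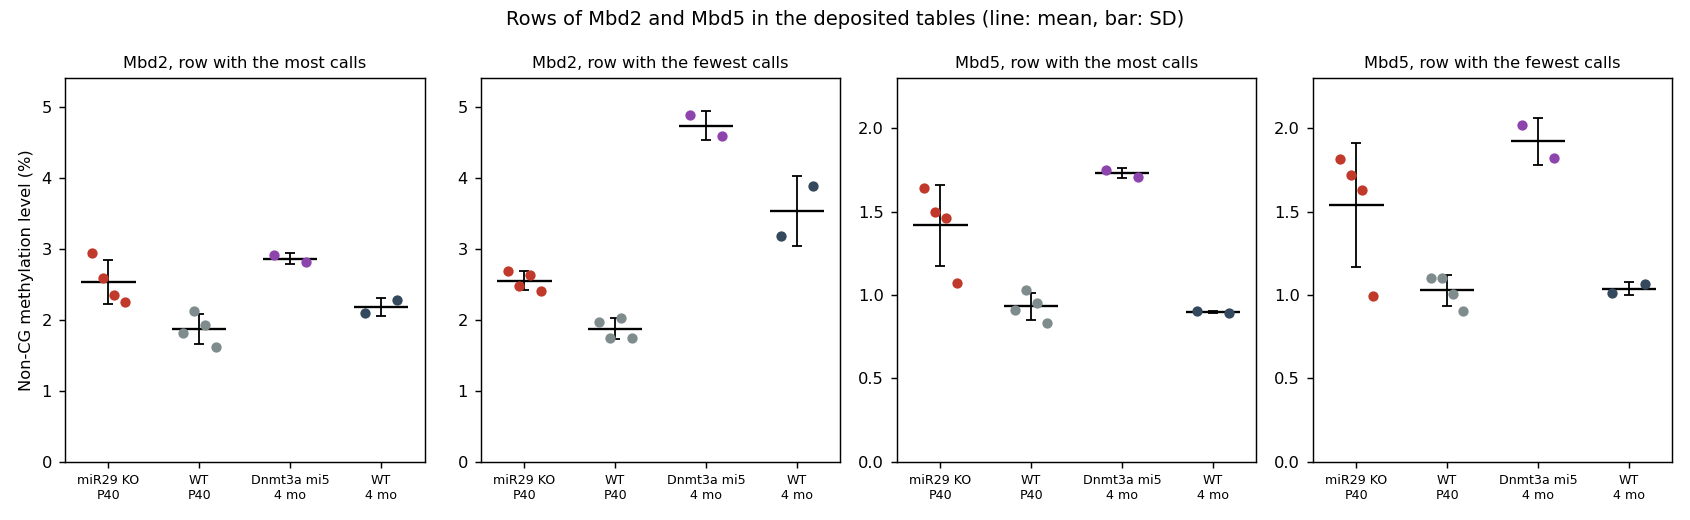
Non-CG methylation level (percent of calls) of the RefSeq rows of Mbd2 and Mbd5 with the most and the fewest calls, in the 4 groups; points are libraries, and lines and bars are the mean and SD. The second Mbd2 row stands at 4.59% to 4.88% in mi5 libraries and 3.18% to 3.88% in WT libraries at 4 months, above the first Mbd2 row, while at P40 the means of its 2 rows are 2.55% and 2.53% in KO libraries and both 1.87% in WT libraries.

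The genes whose levels over the 12 libraries lay nearest to each reader gene were ranked by the root mean square difference of log2(percent + 0.1). Nearest to Mbd5 were Adgrb3 (0.0483) and Ankib1 (0.0529), and nearest to Uhrf2 were Tcf20 (0.0746) and Braf (0.0779). Uhrf1 was followed most closely by Ubac2 (0.0814) and Lsm6 (0.0832), Mbd4 by Spop (0.0986) and Rprd1b (0.108), and Mbd2 by Arl6ip5 (0.0992) and Tnks (0.105). The sparsely methylated genes had looser neighbours: Tatdn2 (0.215) and Polr3f (0.237) for Mbd3, Cox6b1 (0.258) and Fdx2 (0.286) for Mbd1, and Zfp324 (0.387) and Ap2m1 (0.393) for Mbd6. Their rows also held the fewest methylated calls, and what part counting noise has in these distances was not tested. A small value says that 2 levels lie close in every library, which many genes shifting with the whole genome can meet.

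Partners through which the readers act, together with other methyl-DNA readers, were taken as 6 lists of 49 genes in all. They are called the partner lists here, and every gene was tested. At P40, 31 of 49 rose in KO cortex and 0 fell, with a median log2 odds ratio of 0.52, beside 76.5% of all tested genes and a median of 0.65. At 4 months, 20 of 49 rose in mi5 cortex and 0 fell, with a median of 0.78, beside 58.8% and a median of 0.83. None of the 49 passed in the difference between the mutants or with age in WT.

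Of 13 NuRD subunits, 8 rose in KO cortex and 4 in mi5 cortex, beside 76.5% and 58.8% of all tested genes. Gatad2a, which encodes the subunit that joins MBD2 or MBD3 to the remodeller, averaged 2.71% ± 0.469 in KO cortex and 1.69% ± 0.190 in WT cortex at P40 (0.71 ± 0.13, adjusted p = 1.1e-04), and 3.28% ± 0.0610 in mi5 cortex and 1.49% ± 0.0294 in WT cortex at 4 months (1.16 ± 0.24, adjusted p = 0.003). Of 8 other genes with an MBD-like fold or methyl-binding zinc fingers, 5 rose in KO cortex and 4 in mi5 cortex. Among them Baz2b, a bromodomain gene, averaged 3.12% in KO cortex and 2.06% in WT cortex, and 3.41% in mi5 cortex and 1.90% in WT cortex. Of 8 corepressor subunits, 5 rose in KO cortex and 4 in mi5 cortex; Tbl1xr1, of the NCoR complex, averaged 1.93% in KO cortex and 1.27% in WT cortex, and 2.14% in mi5 cortex and 1.14% in WT cortex.

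Of 6 partners of UHRF1 in maintenance methylation, 4 rose in KO cortex and 3 in mi5 cortex, again beside 76.5% and 58.8% of all tested genes. Hells, a chromatin remodeller needed for DNA methylation at repeats, averaged 2.80% in KO cortex and 1.66% in WT cortex, and 2.77% in mi5 cortex and 1.47% in WT cortex. Of 6 partners of MBD4 in repair, 4 rose in KO cortex and 2 in mi5 cortex. Of 8 genes of PR-DUB and its partners, 5 rose in KO cortex and 3 in mi5 cortex. Asxl3, an additional-sex-combs subunit of that complex, averaged 2.75% in KO cortex and 1.59% in WT cortex (0.81 ± 0.12, adjusted p = 5.7e-05), and 3.13% in mi5 cortex and 1.53% in WT cortex (1.06 ± 0.19, adjusted p = 0.003). The genes named from 5 of the lists have the smallest p of their list.

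**Figure D4:**
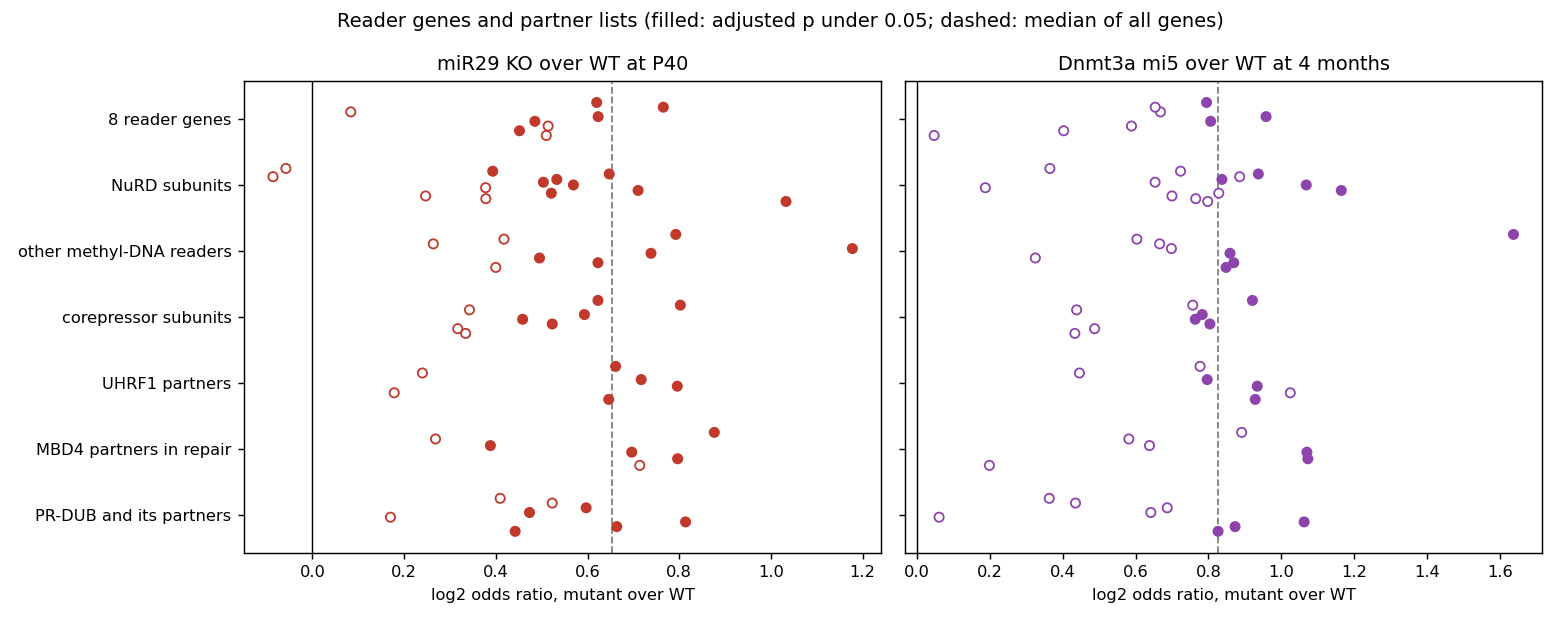
Log2 odds ratio of each of the 8 reader genes (top row) and of each gene of the partner lists, by list. Panels are miR29 KO against WT at P40 and Dnmt3a mi5 against WT at 4 months. Filled points are genes past the adjusted p threshold of 0.05, and dashed lines mark the median of all tested genes. At P40, 31 of the 49 listed genes passed, and at 4 months 20 of 49. All called genes lie above 0.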

How the data were processed

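Per the labels' protocols, DNA from cortex was sheared by sonication, given a spike of lambda DNA and sequenced after bisulfite treatment; the spike was not analysed here. BSMAP and mm9 come from the submitters' processing notes, with versions and roles not given in the sources used here. The tables the authors deposited give 2 numbers per RefSeq transcript. One is a whole count of methylated non-CG calls. The other is the total, which was handled as an expected count because the deposited values are whole in just 35.7% to 62.2% of cases; no label or header used here says how the totals arose, and they were rounded.

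Rows were named through RefSeq (GRCm38.p6). Of 36672 rows per table, 300 had no symbol and 1395 rows of 410 repeated identifiers were left out; of the rows of a gene, the one with most calls was used. Genes with at least 500 calls in every library were tested. All 8 reader genes passed, with 1344 to 275239 calls per library. Each gene got a quasi-binomial model on its calls, with 1 mean for each group and the dispersion moderated by squeezeVar of limma 3.58.1 (trend, robust; R 4.3.3), a two-sided test and Benjamini-Hochberg adjustment. The median overdispersion was 5.13, so the spread between libraries exceeds counting error. No 2 libraries of a group agreed within sampling noise, the lowest chi-square per gene being 2.73.

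Genes named from the partner lists are those with the smallest p of their list in each mutant comparison. For 1 list that gene is not reported here. The reader genes, partner lists and naming rule were chosen with earlier results of these data known. Alternatives covered filters, row choice, centring, scale, dispersion, replicate block and left-out libraries. The tables were read with pandas 2.3.3 and numpy 2.4.6 under Python 3.11.15, with tests from scipy 1.17.1 and figures from matplotlib 3.10.9.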

Additional observations from a re-analysis of the deposited data

Results flagged for a closer look

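Mbd1 in WT cortex at P40 had 1 library far from the others. Replicate 4 stood at 0.800%, while the other 3 lay between 0.287% and 0.361%. Such a gap turns up by chance in about 1 of 20 groups, and 16 groups of 4 libraries were looked at. The comparison of KO with WT at P40 did not pass for Mbd1 with this library (log2 odds ratio 0.51, adjusted p = 0.155) and passed without it (0.94, adjusted p = 0.0135).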

How the results depend on the processing

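The 5 calls at P40 (Mbd2, Mbd4, Mbd5, Uhrf1 and Uhrf2) held whichever single library was left out, and the count then ran from 5 to 6. With each library centred on its median gene, 1 reader gene passed at P40 and 0 at 4 months, and among the called genes log2 odds ratios changed sign in KO for Mbd2 (−0.23), Mbd4 (−0.19), Mbd5 (−0.063) and Uhrf2 (−0.064) and in mi5 for Mbd4 (−0.059) and Uhrf2 (−0.071). The genes not called also lay below 0, at −0.61 to −0.18 in KO and −0.82 to −0.20 in mi5. The rows with the fewest calls were an alternative chosen after seeing the data. Centring on them gave −0.22 for Mbd2 (adjusted p = 0.284) and −0.086 for Mbd5 (adjusted p = 0.602) in KO. In mi5 it gave −0.42 for Mbd2 (adjusted p = 0.332). None of these passed, so the centred Mbd2 call in KO was not seen on its second row. The rows with the fewest calls gave, without centring, 1 call with age. The mi5 count of 3 became 5 with only the libraries of the comparison and 0 without the 4 libraries of low Y-gene coverage, and ran from 0 to 5 when 1 library was left out. With the 1st percentile of each library subtracted the mi5 count was 2, as Mbd4 missed the threshold (0.94, adjusted p = 0.0519). Mbd6 in KO then had −0.13. Whether replicate numbers pair the samples was not settled. At P40, deviations from the group mean correlated at −0.05 to 0.11 for same-numbered libraries and −0.14 to 0.21 for the others. At 4 months, 2 libraries per group force opposite values (−0.09 and 0.09), so that check cannot bear on pairing. With the replicate block 5 reader genes were called at P40, 5 in mi5, 0 in the difference and 0 with age. All-gene counts differed by over 1.5 times as follows. Centring gave 911 at P40 (15176 otherwise), with 207 higher and 704 lower, 7 in mi5 (11649 otherwise) and 296 with age (26 otherwise). In mi5 the count was 1 without the 4 libraries of low Y-gene coverage, 7710 without mi5 replicate 1, 4673 without WT 4-month replicate 1 and 6309 without replicate 2. With age it was 79 with the replicate block, 41 with only the libraries of the comparison, 11 without trend and robust moderation and 42 without KO replicate 4; the difference between the mutants had 3 calls with limma on percent levels and 0 otherwise. Centring, and leaving out libraries of a comparison, change what is compared. Libraries outside a comparison enter it only through the shared estimate of spread. Otherwise the cause was not tested. Mbd1, Mbd3 and Mbd6 held the fewest methylated calls of the 8 in every group, and their intervals were the widest.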
